A study of Mus musculus with 6 samples.

Results

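Of the 75412 accessible regions in the unified ATAC-seq peak set of mouse muscle stem cells (MuSCs), 2716 lost signal after inactivation of Taf4a and carried no annotated gene. ATAC-seq uses the Tn5 transposase to insert sequencing adapters into open DNA, so that the number of reads in a peak reports accessibility. The 2716 peaks were selected on the ATAC values themselves. Their gene field was empty, their mean over the 6 libraries was above 10, and the log2 ratio of the Taf4a sKO mean to the control mean, each plus 1, was below -1. They made up 6.77% of the 40114 peaks without a gene and a mean above 10. By the same thresholds 3587 peaks without a gene were gained and 33811 were unaltered, and 1323 lost peaks carried a gene. Peaks without a gene formed 67.2% of the 4039 lost peaks and 53.2% of all peaks above the minimum mean. Because the genotype difference chose these peaks, it is described for them, and no count of them past a test is read as evidence.

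The MuSCs were freshly isolated from mice of C57BL/6 background and gave 3 control and 3 Taf4a sKO libraries of 50000 cells each, described as biological replicates. Whether a library pooled cells of several mice was not given in the sources used here. In the Taf4a sKO mice, exons 11 to 12 of Taf4a were flanked by loxP sites on both alleles and were removed by a tamoxifen-inducible Cre recombinase expressed from the Pax7 locus, after injections of tamoxifen (0.05 mg per g of mouse each) into animals 8 to 20 weeks old. According to the methods, controls were littermates that also carried the floxed Taf4a alleles, either without or with the Cre allele, and mice of either genotype could carry a Pax7-driven zsGreen reporter. The control libraries themselves are titled WT, for wild type. Which control library came from a Cre carrier or from a mouse given tamoxifen, and the sex of each library, were likewise not stated. MuSCs were sorted from limb and trunk muscle for integrin alpha-7 or zsGreen after removal of cells with SCA1, CD45 or CD31, markers of fibro-adipogenic, haematopoietic and endothelial cells. The deposited values are normalized counts per peak, which summed to 37722015, 35226223 and 42803315 in control and 44311913, 41661725 and 41948821 in Taf4a sKO libraries.

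The general transcription factor TFIID, which has TAF4A among its subunits, brings RNA polymerase II to core promoters. Accessible DNA away from promoters mostly consists of enhancers and other regulatory elements, which are bound by cell type specific transcription factors. In MuSCs and myoblasts, E-box sequences are bound by the myogenic basic helix-loop-helix factors MYF5 and MYOD, while AP-1 sites are bound by FOS and JUN proteins, which respond quickly to isolation and activation.

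The targeted locus itself held a lost peak. The peak chr2:179922849-179923263 (mm10) overlaps exon 12 of Taf4, the symbol of Taf4a in the annotation. Its normalized count was 65, 78 and 137 in control and 44, 22 and 25 in Taf4a sKO libraries. Each knockout library was below each control library, and 32.5% of the control mean was left. Exon 12 belongs to the sequence that Cre removes, so missing DNA and lower accessibility cannot be told apart at this peak. The peak over exon 7, outside the floxed part, had 253, 249 and 302 in control and 140, 145 and 165 in Taf4a sKO libraries. It was lower (adjusted p = 0.00014 from limma, log2 fold change -0.83 with a standard error of 0.15). At the promoter peak, with 2305, 1998 and 2375 in control and 2095, 2124 and 2104 in Taf4a sKO libraries, no difference passed the test (adjusted p = 0.59 from limma, log2 fold change -0.07 with a standard error of 0.10).

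The sequences around the centres of a few lost peaks show the DNA that was affected. Each stretch covers 200 bases of the forward strand of GRCm38, the build also called mm10. Capitals mark the E-boxes CAGCTG and CAGGTG (or its reverse complement CACCTG) and the AP-1 site TGANTCA. The peak in an intron of Dnah2 on chromosome 11 is shown because it had one of the largest numbers of E-boxes of all lost peaks, which lie in repeated copies of a short sequence. It was chosen after its sequence was seen. The next 3 peaks had the lowest ratios among lost peaks with a control mean of at least 200, and the last had the highest control mean of all.
chr11:69459994-69460193: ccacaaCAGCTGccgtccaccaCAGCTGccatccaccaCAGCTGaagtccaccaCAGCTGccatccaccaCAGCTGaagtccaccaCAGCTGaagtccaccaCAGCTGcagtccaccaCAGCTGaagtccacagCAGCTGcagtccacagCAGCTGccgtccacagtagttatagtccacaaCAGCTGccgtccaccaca
chr10:73052161-73052360: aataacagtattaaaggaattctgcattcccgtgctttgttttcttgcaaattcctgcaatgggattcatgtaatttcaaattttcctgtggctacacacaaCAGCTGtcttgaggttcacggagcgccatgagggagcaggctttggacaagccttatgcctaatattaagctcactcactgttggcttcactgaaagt
chr7:94565313-94565512: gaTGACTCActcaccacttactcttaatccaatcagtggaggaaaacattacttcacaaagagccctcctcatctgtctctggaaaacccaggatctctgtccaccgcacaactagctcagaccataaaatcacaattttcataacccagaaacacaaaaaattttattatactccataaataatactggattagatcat
chr12:56004189-56004388: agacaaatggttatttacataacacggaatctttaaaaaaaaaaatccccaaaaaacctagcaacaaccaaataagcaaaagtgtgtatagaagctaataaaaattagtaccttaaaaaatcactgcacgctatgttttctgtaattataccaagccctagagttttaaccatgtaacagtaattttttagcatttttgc
chr9:20689800-20689999: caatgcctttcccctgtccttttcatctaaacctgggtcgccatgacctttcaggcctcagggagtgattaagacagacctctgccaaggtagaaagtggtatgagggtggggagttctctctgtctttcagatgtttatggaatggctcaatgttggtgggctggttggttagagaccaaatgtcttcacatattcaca

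The Dnah2 stretch held 11 copies of CAGCTG, and the peak had values of 465, 462 and 379 in control and 126, 99 and 86 in Taf4a sKO libraries. The stretch on chromosome 10 held 1 CAGCTG and the stretch on chromosome 7 held 1 AP-1 site. Those on chromosomes 12 and 9 held none of the marked motifs. The chromosome 12 peak, an intergenic region 160096 bp from the start site of Brms1l, had 328, 388 and 463 in control and 11, 27 and 21 in Taf4a sKO libraries, a log2 ratio of -4.25. The chromosome 10 peak, 47082 bp from a start site of Pcdh15, had 232, 200 and 269 in control and 11, 10 and 13 in Taf4a sKO libraries, also a log2 ratio of -4.25. The chromosome 7 peak had 253, 188 and 218 in control and 11, 8 and 14 in Taf4a sKO libraries. Thus 5.00% of the control mean was left at the chromosome 12 peak, 4.85% at the chromosome 10 peak and 5.01% at the chromosome 7 peak. Strong control signal did not always disappear to that extent. The chromosome 9 peak in an intron of Olfm2, which encodes a secreted olfactomedin protein, had 2253, 2426 and 3148 in control and 763, 770 and 960 in Taf4a sKO libraries, so that 31.9% was left. The next highest control means belonged to an intronic peak of Pax7 and to a peak at a start site of Fgf12, which encodes an intracellular fibroblast growth factor homologue. The Fgf12 peak had 1585, 1614 and 1674 in control and 797, 719 and 653 in Taf4a sKO libraries.

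Most lost peaks kept part of their signal. The median normalized count was 85, 88 and 96 in control and 31, 29 and 30 in Taf4a sKO libraries. Bulk libraries cannot tell a smaller opening in every cell apart from fewer cells in which a site is open. The lost peaks received 1.04%, 1.09% and 1.03% of all signal in control libraries and 0.347%, 0.331% and 0.342% in Taf4a sKO libraries. Residual signal, the Taf4a sKO mean as a percentage of the control mean, had a median of 36.6% with quartiles of 26.7% and 43.6%. Taken by library, the median residual was 36.7%, 33.9% and 34.8%. Less than 10% was left at 85 peaks, 10 to 25% at 509, 25 to 40% at 1068 and more at 1054. The Taf4a sKO mean was below 10 at 291 peaks and at least 100 at 354. Only 2 peaks were listed at 0 in every Taf4a sKO library. Both lie on chromosome 4, are mostly repeat-masked sequence (94.3% and 82.3%), and had nearly no signal in control replicate 3 either, with 49, 37 and 1 and with 85, 71 and 0 in the control libraries. By limma on log2 values, 2675 of the 2716 peaks were lower at an adjusted p under 0.05, beside 13.9% of all 75384 peaks tested (10476 lower and 21102 higher, or 16943 lower and 19090 higher after scaling with median-of-ratios factors). Every Taf4a sKO library lay below every control library at 2653 peaks, beside 18.0% of all peaks, and 63 peaks overlapped between genotypes. Of all peaks, 5.36% passed the thresholds for a lost peak. Since these same values chose the peaks, the shares describe the selection.

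**Figure D1:**
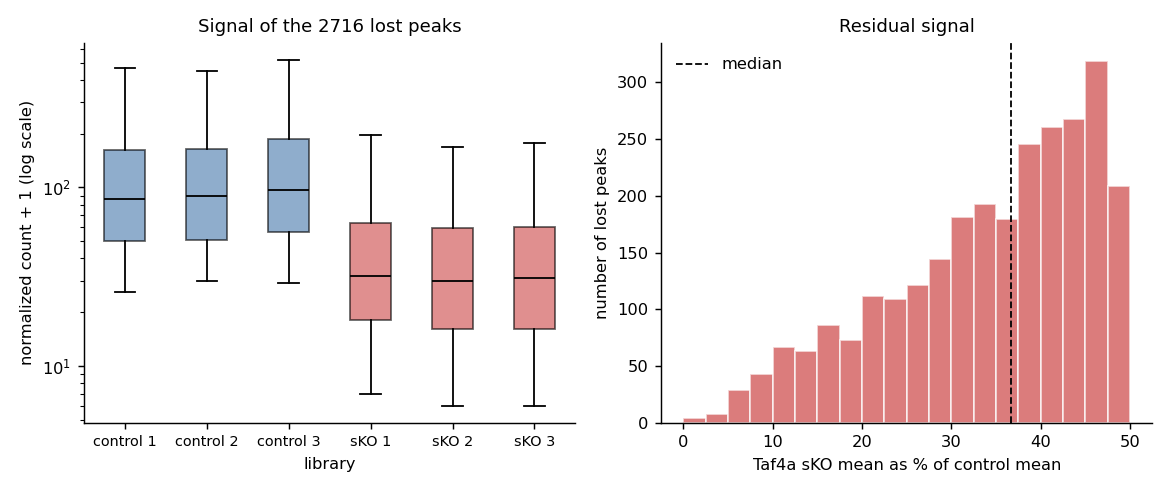
Left, normalized count plus 1 of the 2716 lost peaks without a gene in each library on a log axis, with boxes for the quartiles, lines for the median and whiskers from the 5th to the 95th percentile. Right, number of peaks by residual signal, the Taf4a sKO mean as a percentage of the control mean. The 3 Taf4a sKO medians (29 to 31) lie below the control medians (85 to 96), and the residual has a median of 36.6%, cut off near 50% by the threshold.

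The values just inside the threshold were not distinct from those just outside. An intergenic peak on chromosome 11, chr11:109875094-109875677, had 332, 345 and 376 in control and 190, 170 and 164 in Taf4a sKO libraries and was counted as lost. An intronic peak of Galnt17, chr5:131284084-131284481, had 108, 126 and 95 in control and 43, 59 and 61 in Taf4a sKO libraries and was not, with a log2 ratio of exactly -1.

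Replicates not used for the choice give a measure of how far the loss was shared between libraries. Peaks without a gene were chosen on 2 control and 2 Taf4a sKO libraries and read in the remaining pair, for each of the 9 pairs. Between 2383 and 3168 peaks were chosen. In the left-out pair their median log2 ratio lay between -1.15 and -1.58, whereas that of all peaks without a gene lay between -0.03 and 0.31. A log2 ratio below -1 recurred at 58.7 to 81.0% of the chosen peaks, against 5.87 to 10.04% of all. Any lower value in the left-out Taf4a sKO library was found at 97.1 to 98.99%, against 31.5 to 51.4% of all. The 9 pairs share libraries, and any other difference between the 2 groups would recur as well, so this is a description only. Within that limit, most of the loss recurred in the left-out libraries. It was smallest when Taf4a sKO replicate 1 was left out together with control replicate 1 or 2. The coefficient of variation of the lost peaks had a median of 17.7% among control and 21.5% among Taf4a sKO libraries, compared with 14.3% and 10.6% for unaltered peaks without a gene. The spread among knockout libraries was thus wider at lost peaks, whose knockout values are also lower.

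The median length of lost peaks without a gene was 368 bp, compared with 442 bp for gained and 528 bp for unaltered peaks without a gene. Introns held 50.3%, intergenic sequence 42.7%, exons 4.49% and the 1000 bp around a start site 2.50% of their centres. For unaltered peaks without a gene, 53.1% were intronic, 38.1% intergenic, 3.53% exonic and 5.30% next to a start site. The nearest protein-coding start site was at a median distance of 41126 bp for lost, 35900 bp for gained and 28114 bp for unaltered peaks. More than 100 kb to that site were found at 786 lost peaks (28.9%), 23.4% of gained and 18.5% of unaltered ones. An empty gene field does not always mean that no gene is near, since 491 lost peaks (18.1%) had a start site of GENCODE vM21 within 10000 bp. On average 11.2% of the bases were repeat-masked in lost, 10.8% in gained and 11.4% in unaltered peaks, and at least 50% of the bases were masked in 2.98%, 1.76% and 1.70% of them. The 85 peaks with less than 10% residual had a median length of 302 bp, a median distance of 79433 bp to a protein-coding start site and a masked share of 13.5%. Their median control level was 68.3, and that of the peaks with a residual of 40% and over was 97.7.

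Of 16 motifs searched, E-boxes differed most, in percentage points, between lost and unaltered peaks. In the 200 bases around the centre, on either strand, CAGCTG was present in 937 of the 2716 lost peaks (34.5%), in 16.9% of gained, 23.7% of unaltered and 23.9% of all peaks without a gene. CAGGTG, which does not overlap with it in sequence, was present in 19.2% of lost, 5.77% of gained and 12.1% of unaltered peaks, beside 11.98% of all peaks without a gene. Either form was found in 46.8% of lost, 21.9% of gained and 33.0% of unaltered peaks, and at least 2 matches were found in 14.5% of lost, 2.96% of gained and 6.79% of unaltered peaks. RUNX sites (TGTGGT) were present in 19.0% of lost, 15.1% of gained and 15.8% of unaltered peaks. The opposite order held for the AP-1 site TGANTCA, with 18.0% of lost, 28.3% of gained and 20.5% of unaltered peaks, and for the NFI site TTGGCA, with 18.3%, 22.9% and 19.4%. GC boxes (GGGCGG), which are frequent in promoters, were found in 3.31% of lost, 4.66% of gained and 6.98% of unaltered peaks. Among lost peaks with a gene the shares were 37.0% for CAGCTG, 21.5% for CAGGTG, 13.6% for AP-1 and 8.16% for GC boxes. For both E-boxes the share was highest in lost and lowest in gained peaks in each of 5 classes of GC content. In the class with the lowest GC content CAGCTG was present in 19.5% of lost, 9.53% of gained and 13.3% of unaltered peaks, and in the class with the highest in 55.3%, 26.0% and 32.3%. Either form of E-box was present in 36.5% of the 85 peaks with the least residual signal and in 47.5% of the 1054 peaks with the most. Seen from the sequence, 9.79% of the 9569 peaks without a gene that held CAGCTG were lost and 6.34% were gained, whereas of the peaks without it 5.82% were lost and 9.76% were gained. Motif matches are a description of the letters in these windows, and binding was not measured in these libraries.

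**Figure D2:**
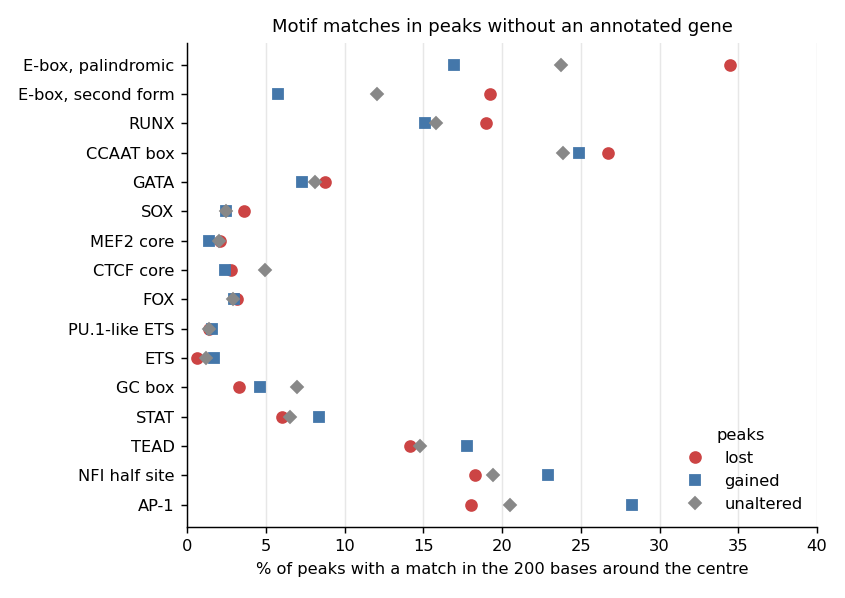
Percentage of lost (red circles), gained (blue squares) and unaltered (grey diamonds) peaks without a gene that hold a match to each of 16 motifs in the 200 bases around the peak centre. The palindromic E-box (34.5% of lost, 16.9% of gained) and the second E-box form (19.2% and 5.77%) lie furthest to the right of unaltered peaks for lost peaks, and AP-1 (18.0% and 28.3%) furthest to the left of gained peaks.

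Neighbours of lost peaks were often lost themselves. The nearest neighbour without a gene was itself lost for 712 of the 2716 lost peaks (26.2%) and gained for 73 (2.69%). For gained peaks the nearest neighbour was lost in 1.73% and gained in 24.8%, and for unaltered peaks it was lost in 5.45%. Within 5 kb of a lost peak 26.9% of the other peaks without a gene were lost, compared with 1.36% within 5 kb of a gained peak and 6.77% of all. The share declined with distance, to 18.0% at 10 to 25 kb, 12.9% at 50 to 100 kb and 7.21% at 500 to 1000 kb. Gained peaks made up 2.66% of the neighbours within 5 kb and 8.53% at 500 to 1000 kb, against 8.94% of all peaks without a gene. Peaks that do carry a gene were not used to choose the lost peaks and come from the same libraries. Of the 84 such peaks within 5 kb of a lost peak without a gene, 27 were lower by limma (32.1%) and 15 were higher (17.9%). Of the 12865 that lay over 500 kb away, 9.23% were lower and 23.5% were higher. The shares among all peaks with a gene were 11.5% lower and 22.5% higher, and among all peaks tested 13.9% lower and 28.0% higher. Neighbouring peaks are not independent of each other, and no test was made of these shares.

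**Figure D3:**
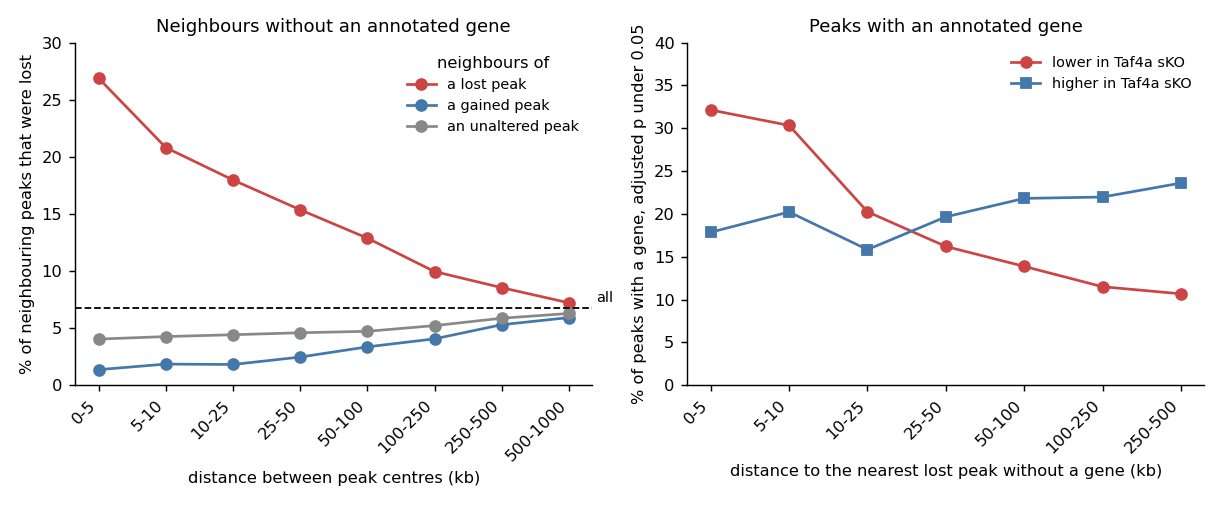
Left, percentage of neighbouring peaks without a gene that were lost, by distance between centres in kb, around lost, gained and unaltered peaks, with the share among all peaks without a gene as a dashed line. Right, percentage of peaks with a gene that were lower or higher in Taf4a sKO (limma, adjusted p under 0.05), by distance to the nearest lost peak without a gene. Within 5 kb the left plot shows an excess of lost peaks (26.9%) and the right plot an excess of peaks lower by limma (32.1%). Both decline with distance.

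Joined at gaps of at most 50 kb, 449 of the lost peaks (16.5%) formed 118 clusters of 3 or more, 281 pairs were found, and 1705 peaks stood alone. The clusters spanned 1.55 to 173 kb, with a median of 42.6 kb, and 21 had 5 or more peaks. Their spans held 610 peaks without a gene, of which 73.6% were lost and only 1 was gained. In 59 of the 118 clusters every peak without a gene was lost, which is partly given by the way clusters were built. The 21 peaks with a gene inside the spans included 16 that were lower by limma and 0 that were higher. Clustering was not particular to loss, since 914 of the 3587 gained peaks (25.5%) formed clusters by the same distance. Across chromosomes the share of peaks without a gene that were lost ranged from 5.05% on the X chromosome and 5.38% on chromosome 15 to 8.71% on chromosome 2 and 9.33% on chromosome 12. On the Y chromosome 3 of 9 peaks were lost.

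The 8 clusters with the most lost peaks are described, where of 6 clusters tied at 6 peaks only the 2 with the shortest spans were taken. The largest cluster had 11 lost peaks over 152 kb on chromosome 2 (chr2:28212953-28364931). It begins within Olfm1, which encodes a secreted glycoprotein of the nervous system, and ends 81869 bp before Ppp1r26, which encodes a regulatory subunit of protein phosphatase 1. The summed signal of the 11 peaks was 1894, 1708 and 2105 in control and 524, 396 and 311 in Taf4a sKO libraries, so that 21.6% was left. Its strongest peak, chr2:28336258-28337312, had 917, 673 and 1036 in control and 180, 145 and 31 in Taf4a sKO libraries. Replicate 3 of the knockout was thus well below the other knockout libraries at this site. Of the 5 other peaks without a gene in the span, 1 was lower and 1 was higher by limma, the latter with 495, 430 and 431 in control and 735, 643 and 634 in Taf4a sKO libraries. Loss was thus interspersed with sites that did not follow it.

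The cluster on chromosome 14 (chr14:30261737-30366237) had 10 lost peaks, all within introns of Cacna1d, which encodes the pore-forming subunit of an L-type calcium channel. Their sum was 1875, 1603 and 2139 in control and 721, 705 and 522 in Taf4a sKO libraries, and 34.7% was left. All 4 other peaks without a gene in the span were lower by limma as well, with log2 ratios no higher than -0.61. The cluster on chromosome 12 between Eipr1 and Myt1l (chr12:28948525-29121737) also had 10 lost peaks, with sums of 1791, 2149 and 2398 in control and 702, 649 and 605 in Taf4a sKO libraries, and 30.9% was left. Its 5 peaks with a gene had a median log2 ratio of -1.33. Its strongest lost peak, chr12:29083457-29084422, had 554, 587 and 838 in control and 323, 273 and 263 in Taf4a sKO libraries, and without control replicate 3 its log2 ratio of -0.99 would no longer pass the threshold.

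Residual signal was lowest in a pair of smaller clusters. On chromosome 10 (chr10:72979439-73066029), all 7 peaks without a gene in the span were lost. Their sum was 970, 1001 and 1140 in control and 91, 128 and 96 in Taf4a sKO libraries, and 10.1% was left. The cluster ends 33313 bp before Pcdh15, which encodes a protocadherin of the sensory hair cell. On chromosome 2 between Bmp2 and Hao1 (chr2:134335818-134371452), all 6 peaks without a gene in 35.6 kb were lost, with sums of 499, 471 and 558 in control and 55, 44 and 44 in Taf4a sKO libraries, and 9.36% was left. Bmp2, a ligand of the TGF-beta superfamily, lies 772933 bp from the cluster and Hao1, which encodes a hydroxyacid oxidase, 125909 bp. No peak kept more than 18.3% of its control mean in the chromosome 10 cluster or 15.3% in the cluster near Hao1, and at each of these peaks every knockout library lay below every control library.

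The cluster on chromosome 9 (chr9:20679045-20710894) had 6 lost peaks in introns of Olfm2 over 31.8 kb. Its sum of 2798, 3069 and 3894 in control and 939, 960 and 1136 in Taf4a sKO libraries was dominated by the peak with the highest control mean. The cluster on chromosome 12 that begins within Ttc9 (chr12:81642438-81703107) had 7 lost peaks with sums of 703, 714 and 762 in control and 196, 246 and 167 in Taf4a sKO libraries. The cluster on chromosome 16 between 1810013L24Rik and Grin2a (chr16:9211562-9291933) had 8 lost peaks with sums of 1207, 1208 and 1623 in control and 533, 794 and 473 in Taf4a sKO libraries. It kept 44.6%, the most of the 8 clusters described. In all 8 clusters the summed signal of each Taf4a sKO library was below that of each control library, and no gained peak without a gene lay within their spans.

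**Figure D4:**
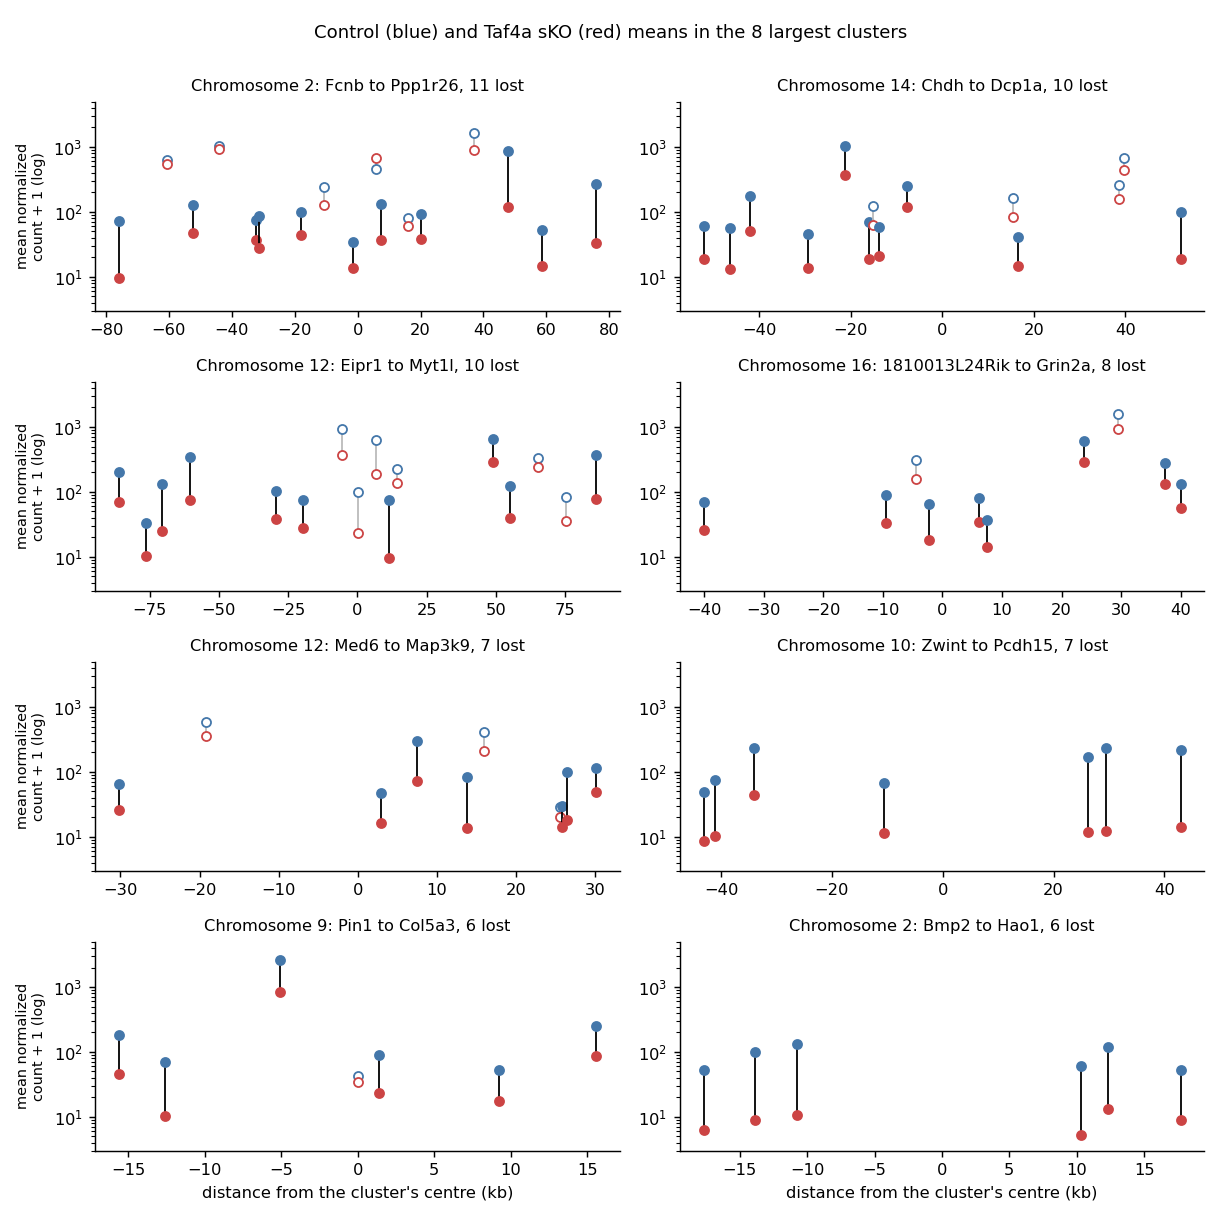
Mean normalized count plus 1 on a log axis in control (blue, n = 3) and Taf4a sKO (red, n = 3) libraries against the distance from the centre of each of the 8 clusters described, in kb. Filled circles joined by black lines are lost peaks without a gene, open circles joined by grey lines are the other peaks in the span, and titles name the protein-coding genes before and after the cluster. In the clusters on chromosome 10 and next to Hao1 every peak in the span was lost.

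At most of the genes around these 8 clusters no difference at the gene's own peak passed the test. Of the 20 protein-coding genes that overlap or flank them, 16 had an annotated peak. At the peak nearest to the start site 4 were lower by limma, with 0 higher, beside 13.9% lower and 28.0% higher among all peaks. The promoter peak of Pcdh15 fell from 377, 345 and 383 in control to 49, 33 and 48 in Taf4a sKO libraries (adjusted p = 5.9e-11 from limma, log2 fold change -3.08 with a standard error of 0.18). The annotated peak of Grin2a, which encodes a subunit of the NMDA-type glutamate receptor, fell from 1261, 1193 and 1749 to 398, 669 and 312 (adjusted p = 0.0063 from limma, log2 fold change -1.66 with a standard error of 0.31). That of Chdh, which encodes choline dehydrogenase, fell from 292, 290 and 342 to 176, 149 and 125 (adjusted p = 1.5e-05 from limma, log2 fold change -1.04 with a standard error of 0.16). The promoter peak of Ttc9 fell less, from 2263, 2180 and 2659 to 1991, 1901 and 1915 (adjusted p = 0.029 from limma, log2 fold change -0.29 with a standard error of 0.10), and its difference no longer passed the test without control replicate 1 or without any 1 of the knockout libraries (adjusted p from 0.06 to 0.11 from limma). That of Grin2a did not pass without Taf4a sKO replicate 1 (adjusted p = 0.058 from limma, log2 fold change -1.59). At the other 12 genes no difference passed the test with all 6 libraries in the fit. Olfm1 had 593, 533 and 661 in control and 680, 617 and 613 in Taf4a sKO libraries (adjusted p = 0.55 from limma). Bmp2 had 1171, 1099 and 1381 and then 1342, 1341 and 1279 (adjusted p = 0.39 from limma). Zwint, a kinetochore gene on the other side of the Pcdh15 cluster, had 2019, 1734 and 1997 and then 2111, 2210 and 2168 (adjusted p = 0.17 from limma). The 4 genes with no annotated peak were Fcnb, Cacna1d, Myt1l and Hao1. Peaks with an empty gene field did lie 441 bp and 286 bp from a start site of Cacna1d. Both were lower, the first with a log2 fold change of -0.69 (adjusted p = 0.0014 from limma) and the second with -0.61 (adjusted p = 0.00033 from limma).

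On the scale of whole megabases, most lost peaks were spread over many intervals and a few intervals were dense. Of 2186 intervals of 1 Mb with a peak without a gene, 927 held no lost peak and 102 held 5 or more, which together contained 670 of the 2716 lost peaks. Intervals in which at least 70% of 10 or more peaks without a gene were lost are described here because they stood out after the values were seen. The densest was the interval from 9 to 10 Mb of chromosome 16, in which Grin2a is the single protein-coding gene. It had 28 lost peaks of 31, and the remaining 3 had log2 ratios between -0.98 and -0.80. The neighbouring intervals had 0 lost peaks of 23 and 3 of 46, so few lost peaks lay on either side. The sum of the 28 peaks was 4162, 4402 and 5965 in control and 1328, 2040 and 1174 in Taf4a sKO libraries, and 31.3% was left. Replicate 2 had the highest knockout value, as it had at the Grin2a promoter. Of the 2 intervals on chromosome 3, that from 143 to 144 Mb had 10 lost peaks of 14 and that from 147 to 148 Mb had 9 of 10, and neither holds a protein-coding gene. The first of these also has 17 peaks with a gene, of which 11 were lower by limma. The interval from 134 to 135 Mb of chromosome 2, with Hao1, Tmx4 and Plcb1, had 10 of 14, and 11.1% of the signal was left. Its 3 peaks with a gene had a median log2 ratio of 0.02, and 0 of them were lower by limma. The interval from 28 to 29 Mb of chromosome 12, in which the cluster beside Eipr1 begins, had 7 of 10.

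**Figure D5:**
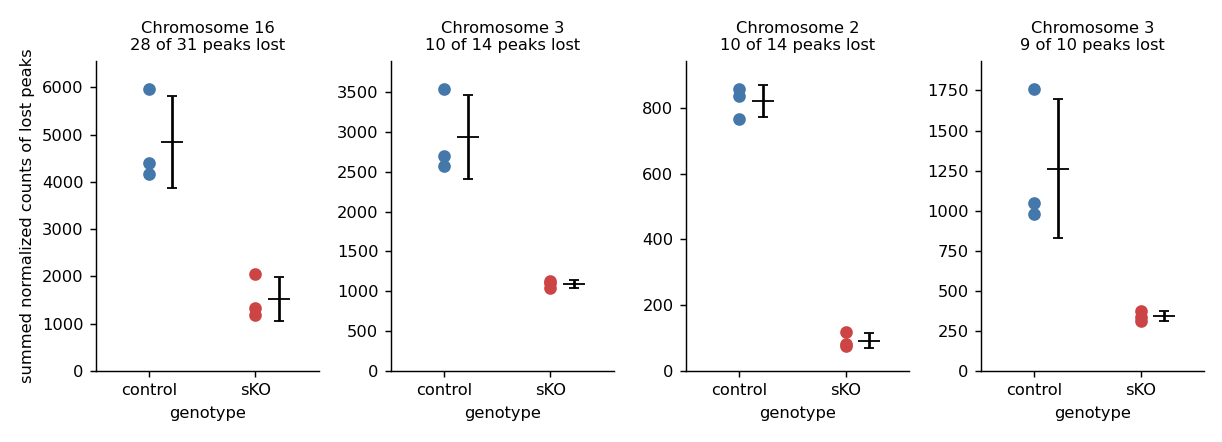
Summed normalized counts of the lost peaks without a gene in 4 intervals of 1 Mb, by library (points), with the mean and SD (black, n = 3) beside them. Each axis starts at 0. In the 4 intervals the Taf4a sKO libraries lie below the control libraries, and control replicate 3 is the highest library in the interval on chromosome 16 (5965) and in both on chromosome 3.

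The surroundings of the engineered Taf4a locus held further lost peaks. Within 1 Mb of its centre 10 of 55 peaks without a gene were lost (18.2%), and between 1 and 2 Mb 8 of 34 (23.5%). Beyond, the share was 4.38% at 5 to 10 Mb, 9.14% at 10 to 25 Mb and 8.47% at over 25 Mb on the same chromosome, and no peak without a gene lay at 2 to 5 Mb. One cluster of 6 lost peaks, chr2:178888579-178980082, lies between Cdh26 and Cdh4 in this surrounding and was picked out after its values were seen. Around Pax7, the site of the Cre allele, 9 of 93 peaks were lost within 1 Mb (9.68%), 4 of 68 at 1 to 2 Mb (5.88%), 21 of 166 at 2 to 5 Mb (12.7%) and 18 of 250 at 5 to 10 Mb (7.20%). According to the methods, controls also carried the floxed Taf4a alleles, whereas the control libraries are titled WT. Whether sequence inherited with those alleles was present in both genotypes was not tested. Local effects of the recombined Taf4a alleles, of the Cre allele or of sequence inherited with them cannot be told apart from effects of the missing protein at these sites.

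Lost peaks lay within 100 kb of a start site of 3483 of 21951 protein-coding genes (15.9%). They were 22.7% of the 15332 genes with any peak without a gene within that distance. Of the 79526 pairs of a protein-coding gene and a peak without a gene within that distance, 5.87% had a lost peak. Among 25 regulators of MuSC identity and myogenesis 6 genes had a lost peak nearby and 6.19% of 226 peaks were lost, close to the share around all genes. Eya2, a transcriptional co-activator of muscle precursor cells, had 6 lost peaks of 20. The strongest of these, chr2:165750912-165751434 in an intron, had 486, 478 and 569 in control and 169, 148 and 173 in Taf4a sKO libraries. Upstream of the gene, chr2:165563167-165564023 had 367, 364 and 366 and then 124, 111 and 138. The 6 peaks kept between 21.4% and 35.9% of their control signal, and no gained peak lay within the same distance. Pax7, which marks MuSCs, had 3 lost peaks of 29, including 2 strong ones in its introns. The peak chr4:139772437-139773153 had 2280, 1288 and 1293 in control and 756, 674 and 676 in Taf4a sKO libraries. The peak chr4:139782810-139783953 had 2123, 1241 and 1553 and then 788, 729 and 792. Control replicate 1 was above the other controls at both, and without it neither passes the threshold, the latter having a log2 ratio of -0.86. Mef2a, a MADS box factor of muscle genes, had 2 lost peaks of 10.

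Among 23 genes for MuSC surface and adhesion proteins 9 had a lost peak nearby and 6.27% of 255 peaks were lost. Itga6, which encodes a laminin-binding integrin subunit, had 4 of 11. The strongest, chr2:71655150-71656272, had 365, 402 and 522 in control and 171, 141 and 190 in Taf4a sKO libraries. Cdh15, which encodes M-cadherin, had 2 of 9. Among 30 regulators of quiescence 8 genes had a lost peak nearby and 4.90% of 306 peaks were lost. Col5a1, which encodes a chain of collagen V, had 3 of 26, among them chr2:27971682-27972448 with 383, 437 and 496 in control and 39, 52 and 54 in Taf4a sKO libraries. Klf4 had 3 of 6, and the strongest of these, chr4:55451767-55452826, had 335, 509 and 668 and then 76, 143 and 196. Dlk1, an imprinted gene for a Notch-related membrane protein, had 2 of 13, of which chr12:109404688-109405600 had 1310, 1199 and 1181 and then 709, 423 and 471. In the Notch pathway 8 of 24 genes had exactly 1 lost peak nearby, among them Dll4, Lfng, Notch2 and Rbpj, and 4.44% of 180 peaks were lost. Of 21 immediate early and AP-1 genes 4 had a lost peak nearby, and 3.97% of 126 peaks were lost. Nr4a3, which encodes an orphan nuclear receptor, had 2 of 2. The stronger, chr4:48107056-48107775, had 279, 268 and 271 in control and 74, 58 and 55 in Taf4a sKO libraries. The shares of the 5 lists ranged from 3.97% to 6.27%, near the 5.87% around all protein-coding genes.

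Marker peaks of MuSCs were present in every library but differed in height. Itga7, which encodes integrin alpha-7, had 743, 717 and 839 in control and 809, 826 and 886 in Taf4a sKO libraries. Cdh15 had 959, 886 and 1020 and then 1324, 1037 and 1028. Myf5 had 2202, 1975 and 2671 and then 2011, 1944 and 1862. Some markers of other cell types were higher than Itga7 and Cdh15, such as Fbn1 with a control mean of 3232. The paper reports that the sorted cells were not fully pure. The promoter peak of Pax7 had 4533, 3128 and 3729 in control and 3084, 2923 and 3026 in Taf4a sKO libraries (adjusted p = 0.03 from limma, log2 fold change -0.32). Without control replicate 1, the highest library, the Pax7 difference did not pass the test (adjusted p = 0.33 from limma, log2 fold change -0.18). The peak of Calcr had 1403, 1183 and 1420 and then 1524, 1583 and 1597 (adjusted p = 0.076 from limma). Of 14 fibro-adipogenic marker genes 12 had an annotated peak, of which 3 were lower and 5 higher, with sums of 6183, 5783 and 6627 in control and 6770, 6366 and 6549 in Taf4a sKO libraries, Fbn1 being the strongest. Of 14 endothelial genes 11 had a peak, 1 lower and 2 higher, with sums of 3328, 3281 and 4019 and then 4946, 5004 and 5076, Tek being the strongest and Egfl7 accounting for most of the difference, with 446, 564 and 648 against 1479, 1521 and 1662. Of 20 haematopoietic genes 6 had a peak, 1 lower and 1 higher, with sums of 1070, 1206 and 1395 and then 1388, 1266 and 1491, led by Spi1. Of 12 glial and neuronal genes 9 had a peak, 1 lower and 1 higher, with sums of 5660, 5413 and 6698 and then 6071, 6082 and 6289, led by Ngfr. Of 10 mural genes 9 had a peak, 0 lower and 2 higher, with sums of 7317, 6963 and 7886 and then 7737, 7251 and 7328, led by Des. All 14 myofibre genes had a peak, 4 lower and 1 higher, with sums of 10295, 9172 and 11104 and then 11301, 9653 and 9942, led by Mylpf. The normalization left the median log2 ratio of all peaks at 0.10, and the mean sums of the fibro-adipogenic, glial, mural and myofibre lists differed by less than that, so their direction depends on the scaling. Around the start sites of the 14 endothelial and the 14 myofibre markers 0 peaks without a gene were lost within 100 kb, and around the 14 fibro-adipogenic markers 1 of 74 was. Around haematopoietic markers 4 of 57 were lost, around glial and neuronal markers 2 of 52 and around mural markers 4 of 65. The part of other cell types in the lost peaks was not tested.

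Mean signal on the Y chromosome was lower in each Taf4a sKO library than in each control library. The mean value over 12 peaks was 626, 586 and 578 in control and 304, 309 and 396 in Taf4a sKO libraries (p = 0.1 by a two-sided exact permutation test, which cannot go lower with 3 libraries in each group). On the X chromosome it was 382, 357 and 432 in control and 436, 409 and 413 in Taf4a sKO libraries over 1883 peaks (p = 0.3 by the same exact test). The 3 lost peaks on the Y chromosome had residuals of 45.6%, 48.2% and 48.3%. The sex or mixture of animals behind the libraries cannot be told apart from genotype there. Without chromosomes X and Y 2662 lost peaks are left.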

How the data were processed

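ATAC-seq reads of 3 control and 3 Taf4a sKO libraries were trimmed by the authors with Trimmomatic 0.39, aligned to mm10 with STAR 2.7.11b, and stripped of duplicates with Picard 3.1.1. Peaks were called with MACS, unified over all libraries, counted with featureCounts and assigned the nearest gene with a start site within 10000 bp. The deposited values are counts per peak that the authors normalized for sequencing depth and rounded, and were treated as score values, so no count model was used. Columns of the authors' own contrast (fold changes and p-values) were not used. The factors behind the rounding were recovered only to describe depth.

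From these values, members were selected by gene field, minimum mean and log2 ratio as stated above. Members and gene lists were chosen with earlier results of these data known. Differences over all 75384 peaks with a mean above 10 were fitted on log2(value + 1) with limma 3.58.1 in R 4.3.3 (trend and robust options, genotype only), with Benjamini-Hochberg adjustment. P-values measure the spread between libraries. The fit was tested on simulated data. Positions and sequences were taken from GRCm38 with GENCODE vM21, since the authors' Ensembl annotation was not used here. Motif matches were counted in 200 bases around peak centres. Computations used Python 3.11.15, pandas 2.3.3, NumPy 2.4.6 and SciPy 1.17.1. Named were the 3 members with the lowest ratio at a control mean of at least 200, the 3 with the highest control mean, those nearest the threshold, the 8 largest clusters (ties to the shorter span) with their flanking genes, and members near listed genes. Other items are described as chosen after their values were seen. Alternatives changed thresholds, pseudocount, scaling, distances and libraries.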

Additional observations from a re-analysis of the deposited data

How the results depend on the processing

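The number of lost peaks without a gene, 2716, came to 1587 with a minimum mean of 50, 1193 with a log2 threshold of -1.5 and 5607 with a 1.5-fold threshold. It lay between 2244 and 3495 under the other alternatives, and between 2469 and 3023 when 1 library was left out. Scaling with median-of-ratios factors moved the median log2 ratio of all peaks from 0.10 to -0.0081, raised the number of peaks lower by limma from 10476 to 16943 (8565 to 10038 when 1 library was left out), and changed the median residual signal from 36.6% to 33.9%. With a minimum mean of 50 that median was 38.5%. The share of lost peaks in clusters, 16.5%, was 9.83% with a linking distance of 25 kb, 26.0% with 100 kb and 18.7% with median-of-ratios factors, and lay between 14.9% (without control replicate 3) and 18.4% (without Taf4a sKO replicate 1) when 1 library was left out. Added after the data were seen, leaving out peaks within 5 Mb of Taf4 gave 16.4%. Either E-box was present in 29.2% of lost and 18.6% of unaltered peaks in 100 bases, in place of 46.8% and 33.0% in 200, and in 45.5 to 49.4% of lost peaks when 1 library was left out. Of the flanking genes, 2 (without Taf4a sKO replicate 1) to 5 (without control replicate 3) were lower by limma when 1 library was left out, an alternative added after the data were seen. Pcdh15 and Chdh passed each time. Ppp1r26 passed with median-of-ratios factors (log2 fold change -0.30, adjusted p = 0.042) and, lower, without control replicate 3, where Zwint and Bmp2 were higher. The Pax7 promoter peak had an adjusted p of 0.0025 without control replicate 2 and of 0.05 to 0.33 when any 1 of the other libraries was left out, none past the threshold. No called result changed direction under these alternatives.

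With the replicate number as a block, 11004 peaks were lower by limma, and 4 of the flanking genes were lower as without it. Deviations from the group means correlated between same-numbered libraries by 0.110, -0.118 and -0.0289, so the numbers were not taken to pair the libraries. The Taf4a sKO mean was below 10 at 291 lost peaks (10.7%), where few counts stand behind the residual signal.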

Other observations

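A stretch of chromosome 4 beyond Pax7 held lost peaks at which 1 control library resembled the knockouts. Chosen after the values were seen, 15 of the 2716 lost peaks had a value in control replicate 3 more than 3-fold below each of the other controls, compared with 2 for control replicate 1 and 0 for control replicate 2. Of these 15 peaks, 8 lie between positions 142251415 and 149437968 of chromosome 4, at 2.47 to 9.65 Mb from Pax7. Their summed signal was 1282 and 1245 in control replicates 1 and 2, 297 in control replicate 3, and 359, 286 and 349 in the knockouts. The peak chr4:145221971-145222378, for example, had 158, 120 and 32 in control and 14, 27 and 27 in Taf4a sKO libraries. The opposite pattern was found among gained peaks without a gene, of which 10 had more than 3-fold higher values in control replicate 3 than in both other controls, 6 of them between positions 144913708 and 151713217 of chromosome 4. These 6 summed to 126, 135 and 573 in control and 712, 575 and 853 in Taf4a sKO libraries. The peak chr4:149437670-149437968, listed at 0 in every knockout library, is one of the 8 lost peaks. The Cre status of each control library is not stated, and its part in this pattern was not tested.

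In the other direction, 8 lost peaks had a value in 1 control library more than 3-fold that of each of the others, 7 of them in control replicate 3 and 1 in control replicate 1. One of them, chr2:157299805-157300416, had 114, 110 and 402 in control and 19, 8 and 10 in Taf4a sKO libraries, so that every knockout library was also far below the other controls. The share of lost peaks in clusters was 16.6% without these peaks.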
